A study of Mus musculus with 16 samples.

Results

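The genes described here encode the MHC class I molecules of the mouse and the machinery that fills them with peptide. They were a list of 34 gene names, and every probe carrying 1 of those names was taken, since probes for related class I genes can bind each other's RNA. Of the 34 names, 31 occurred on the array, on 41 of its 55681 probes. H2-L, H2-Q6 and H2-T22 named no probe. A probe counted as measured if 4 or more of the 16 arrays gave a signal well above background. That held for 40 probes of 30 of the genes. H2-Q1 was not well above background on any array.

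RNA of splenic B cells, purified with beads against the surface marker B220, was measured on 16 single-colour arrays. The deficient mice carry no 3'RR, a group of enhancers that lies 3' of all constant genes in the antibody heavy chain locus (IgH). Per the labels the deletion lies on an IgH allele of 129 origin bred into BALBC, and these mice have the strain entry BALBC. For wild-type mice the strain entry is 129, so genotype and strain entry cannot be told apart in any comparison given here. Ages are not stated in the sources used here. Ddx3y, a gene of the Y chromosome, was well above background on 2 of the 4 arrays of each group of slide 1. On slide 2 it was so on 2 deficient and 4 wild-type arrays, so sex may be mixed and uneven between genotypes. Each of 2 slides, scanned separately, held 4 deficient and 4 wild-type arrays, and the genotypes took opposite ends of the slide on the 2 slides. The text of the series mentions 4 mice of each genotype and the arrays number 8 of each, so the p-values describe a spread between arrays that may in part be technical.

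Class I molecules consist of a polymorphic heavy chain and the invariant light chain B2m, and they present peptides from inside the cell to CD8 T cells. Proteasomes cut the peptides, the Tap1 and Tap2 transporter carries them into the endoplasmic reticulum, Erap1 trims them, and the loading complex around tapasin places them in the groove. In lymphocytes Nlrc5 is known as the transactivator of class I genes, and interferons are known to raise both the heavy chain genes and the genes of peptide supply. The 129 and BALB/c strains are textbook carriers of different H2 haplotypes, whose class I sequences and gene content differ, so a probe may bind the RNA of 1 strain better than that of the other.

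Levels are given as the log2 signal minus the log2 of the array's 75th percentile, and differences as deficient minus wild type on that scale, with the standard error (SE) of a limma model of the 4 groups. Every p is limma's, with a threshold of 0.05, adjusted by Benjamini-Hochberg over all 32881 measured probes unless called unadjusted. For the mean of a gene's probes the adjustment was over 22735 measured genes. Under alternatives that kept other probes it was over those probes. A gene with several probes is counted by its brightest. The array's 75th percentile lay between 576 and 851 (slide 1) or 596 and 990 (slide 2). All 10 B cell markers on the list were well above background on all 16 arrays, and arrays correlated across probes with r from 0.886 to 0.914 between slides, against 0.98 to 0.996 within a group. No spot of a member was saturated.

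Over both slides 13 of the 30 measured member genes were higher in deficient B cells and none was lower by limma, where 17.1% of all 22735 measured genes passed, 7.44% of them as higher and 9.65% as lower. At an unadjusted p under 0.05, 18 were higher and none was lower, against 13.2% and 17.3% of all genes. With slide as an additive block 10 were higher, and the higher calls over all measured probes went from 2493 to 1752. By probe 16 of the 40 were higher, against 7.58% of all measured probes. Of all called probes 45.1% were higher, and 59.8% when arrays were scaled to the median in place of the 75th percentile. The higher genes were Nlrc5, H2-K1, H2-D1, H2-Q2, H2-Q5, H2-Q7, H2-Q10, H2-T9, H2-M2, Tap1, Psmb8, Psmb9 and Erap1. The median difference of the 30 genes was 0.214, against -0.03 over all genes, and 27 of them lay above 0. Most of this difference was seen on slide 1, where 12 members were higher and 1 was lower with a median of 0.235, against a background of 8.93% higher and 15.1% lower. On slide 2 the median was 0.132, 2 members, Nlrc5 and H2-T9, were higher, and none was lower, against 3.86% and 4.06%. At an unadjusted p under 0.05, 7 were higher and 1 was lower on slide 2, against 12.3% and 9.83% of all genes. The count of 2 on slide 2 fell to 1 when any of the 8 arrays of that slide was left out, because Nlrc5 then missed the threshold, and without deficient array 1 of that slide 1 member was lower.

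**Figure D1:**
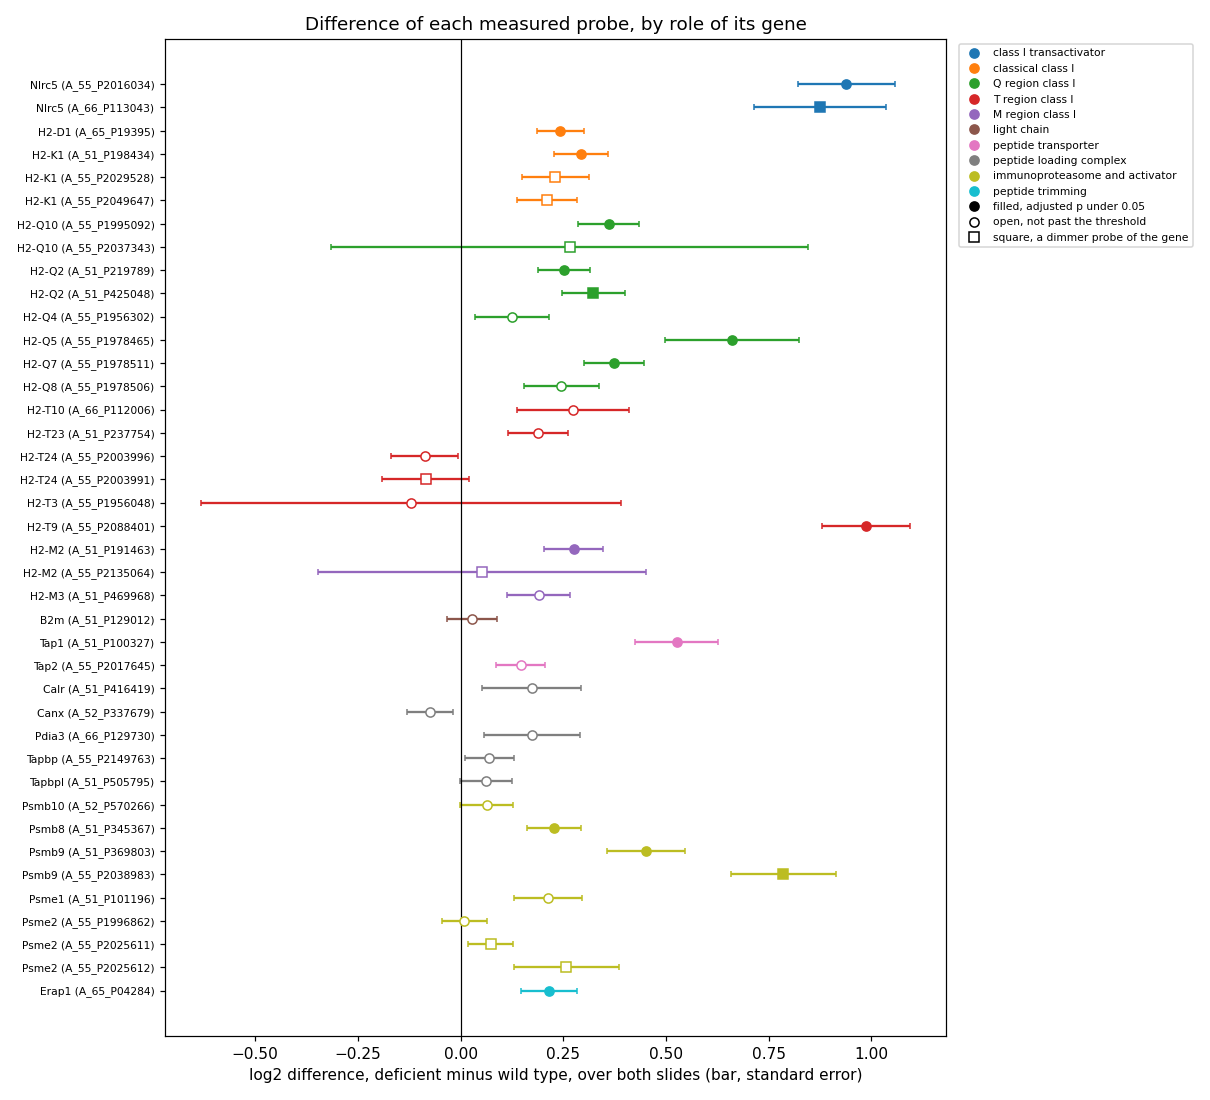
Log2 difference, deficient minus wild type, over both slides for the 40 measured probes, ordered by the role of the gene, with bars for the standard error. Filled symbols passed the threshold; the 2 probes of Nlrc5 and that of H2-T9 lie farthest to the right, and no filled symbol lies below 0.

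Nlrc5, the transactivator of class I genes, was higher on both slides. Its brighter probe (A_55_P2016034, chr8:97051105-97051164, mm9) read 3.81, 4.12, 3.21 and 3.60 in the deficient arrays of slide 1, against 2.78, 2.53, 2.28 and 2.21 in the wild-type arrays. On slide 2 the deficient arrays read 3.55, 3.70, 3.83 and 3.58, and the wild-type arrays 3.05, 2.90, 3.09 and 3.05. Every deficient array lay above every wild-type array of its slide. The difference over both slides was 0.94 (SE 0.12, adjusted p = 0.00011), a 1.92-fold higher level, at 1.24 on slide 1 (adjusted p = 0.000269) and 0.64 on slide 2 (adjusted p = 0.032). The dimmer probe (A_66_P113043), well above background on all 16 arrays, gave 0.87 over both slides (SE 0.16, adjusted p = 0.00228). Deficient arrays of this probe also lay above all wild-type arrays on each slide, with differences of 1.37 and 0.38, the latter not past the threshold (adjusted p = 0.38).

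**Figure D2:**
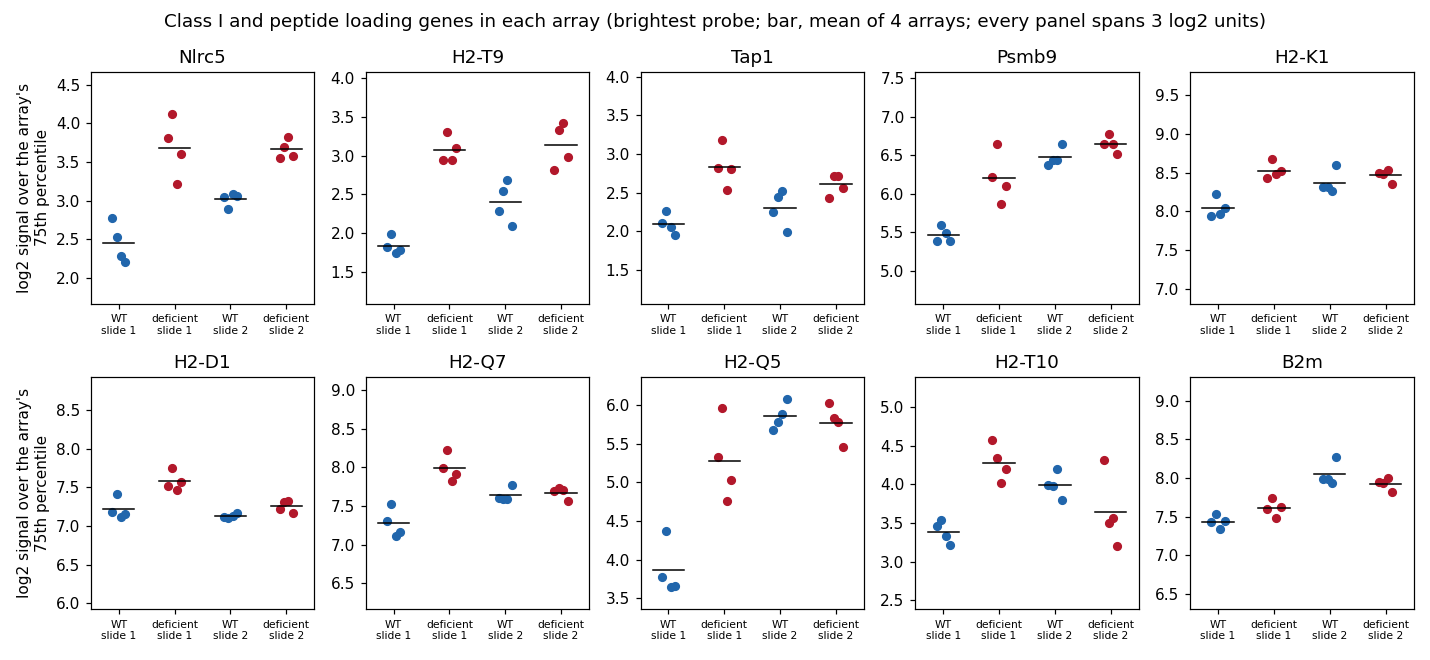
Log2 signal over the array's 75th percentile of 10 member genes in each of the 16 arrays, by genotype and slide, with bars at the mean of 4 arrays. Nlrc5 and H2-T9 were apart on both slides, H2-Q5 and H2-T10 only on slide 1, and the genotypes of B2m overlapped on both.

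H2-K1 and H2-D1 encode classical class I heavy chains, which present peptides to CD8 T cells. The brightest H2-K1 probe (A_51_P198434, chr17:34133055-34133114, mm9) read 8.42, 8.67, 8.49 and 8.52 in deficient arrays of slide 1 and 7.93, 8.22, 7.97 and 8.04 in wild-type arrays. On slide 2 the deficient arrays read 8.49, 8.48, 8.53 and 8.35, and the wild-type arrays 8.31, 8.31, 8.26 and 8.59. The groups were apart on slide 1, while on slide 2 wild-type array 5 lay above every deficient array. H2-K1 rose by 0.29 over both slides (SE 0.07, adjusted p = 0.00805), 1.22-fold, at 0.49 on slide 1 (adjusted p = 0.00259) and 0.10 on slide 2 (adjusted p = 0.615). H2-D1 (A_65_P19395, chr17:35403886-35403945, mm9) read 7.52, 7.75, 7.47 and 7.57 in deficient and 7.19, 7.42, 7.12 and 7.15 in wild-type arrays of slide 1. On slide 2 its values were 7.22, 7.32, 7.32 and 7.17 against 7.11, 7.11, 7.14 and 7.17. H2-D1 was thus apart on slide 1 and by a narrow margin on slide 2, and it rose by 0.24 over both slides (SE 0.06, adjusted p = 0.0113), 1.18-fold, at 0.36 on slide 1 (adjusted p = 0.00732) and 0.13 on slide 2 (adjusted p = 0.416).

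The 3 probes named H2-K1 did not give 1 picture. A_55_P2029528, which the array's annotation describes with the d allele of H-2K and gives no position, differed by 0.37 on slide 1 (adjusted p = 0.0335) and 0.09 on slide 2, and by 0.23 over both (SE 0.08, adjusted p = 0.0671). A_55_P2049647 differed by 0.12 on slide 1 (adjusted p = 0.43) and by 0.30 on slide 2 (adjusted p = 0.0917), where its deficient arrays lay above all wild-type arrays, with 0.21 over both (SE 0.07, adjusted p = 0.0616). The order of the slides was thus the opposite of that of the other H2-K1 probes, and close to that of H2-T23, which encodes the nonclassical molecule Qa-1. H2-T23 (A_51_P237754) differed by 0.06 on slide 1 (adjusted p = 0.71) and by 0.32 on slide 2 (adjusted p = 0.0796), and by 0.19 over both (SE 0.07, adjusted p = 0.0946). On slide 2 H2-T23 read 7.09, 7.44, 7.41 and 7.07 in deficient arrays against 6.92, 6.93, 7.00 and 6.87 in wild-type arrays, with no overlap. Both probes are shown with the run of 29 bases they share in capitals, since RNA of either gene could reach both. The H2-K1 probe lies at chr17:34133984-34134043 and the H2-T23 probe between chr17:36167338-36167574, a span longer than the probe, both on the minus strand of mm9.
H2-K1 probe A_55_P2049647: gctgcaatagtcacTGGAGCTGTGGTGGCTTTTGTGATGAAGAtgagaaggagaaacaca
H2-T23 probe A_51_P237754: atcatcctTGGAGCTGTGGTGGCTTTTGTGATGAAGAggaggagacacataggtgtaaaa

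**Figure D3:**
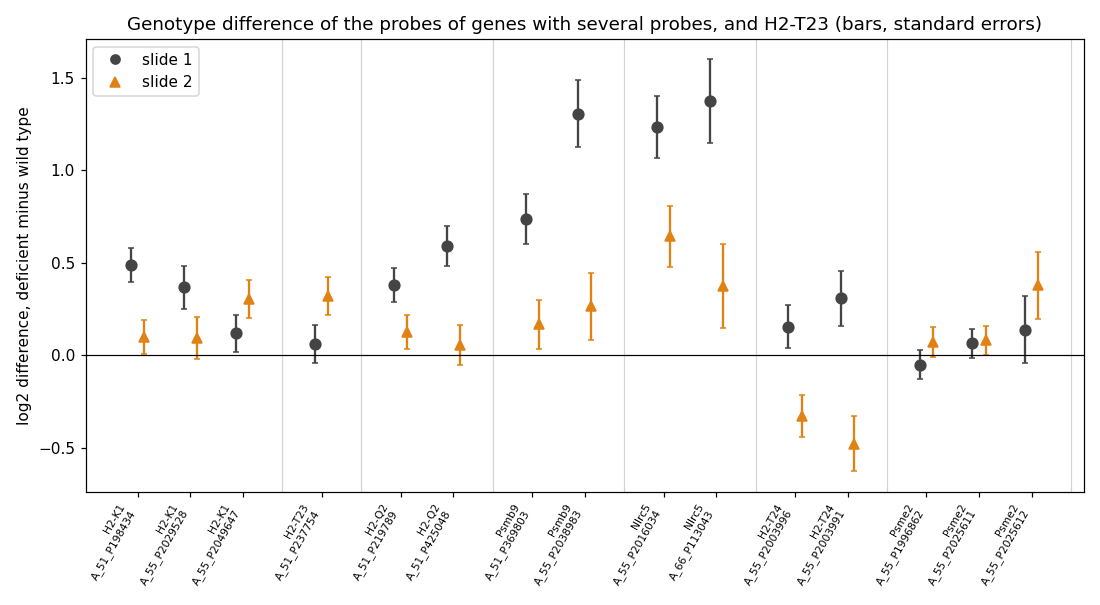
Log2 difference, deficient minus wild type, on slide 1 (circles) and slide 2 (triangles) for the probes of 6 genes with several probes and for H2-T23, with bars for the standard error. H2-K1 probe A_55_P2049647 and H2-T23 had the larger difference on slide 2, while the other H2-K1 probes had it on slide 1.

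Shared runs of at least 20 bases with a probe of another name were found for 7 of the 22 heavy-chain probes of the list. The probe of H2-Q8 shared 54 bases with a probe named by a transcript accession and described as H2-Q6, and that of H2-Q7 shared 28 bases with a probe of H2-K2. Signals of the Q, T and K genes may therefore hold RNA of their relatives, and each is given as the signal of a probe.

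The Q region, telomeric of H2-D1, encodes nonclassical heavy chains of the Qa-2 type, some of them secreted or anchored by lipid. Of its 6 measured genes 4 were higher over both slides and none was lower, against 7.44% and 9.65% of all measured genes. Their median difference was 0.306. H2-Q7, which encodes Qa-2, read 7.99, 8.22, 7.83 and 7.92 in deficient arrays of slide 1 and 7.31, 7.52, 7.11 and 7.16 in wild-type arrays, with no overlap. On slide 2 it read 7.70, 7.73, 7.71 and 7.56 against 7.60, 7.59, 7.59 and 7.77, and wild-type array 5 was the highest of all. H2-Q7 rose by 0.37 over both slides (SE 0.07, adjusted p = 0.00343), at 0.71 on slide 1 (adjusted p = 0.00043) and 0.03 on slide 2. The slides differed by -0.68 (SE 0.15, adjusted p = 0.0103). 

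H2-Q5 had the largest slide 1 difference of the members and did not pass on slide 2. Its deficient arrays on slide 1 read 5.33, 5.96, 4.76 and 5.04, against 3.78, 4.37, 3.64 and 3.66 in wild-type arrays. On slide 2 the deficient arrays read 6.03, 5.83, 5.78 and 5.45 and the wild-type arrays 5.68, 5.78, 5.89 and 6.08. The wild-type level stood 1.99 higher on slide 2 than on slide 1, so that every array of slide 2 lay above every wild-type array of slide 1. The genotype difference was 1.41 on slide 1 (SE 0.23, adjusted p = 0.00106), 2.65-fold, and -0.09 on slide 2 (adjusted p = 0.888, 95% interval from -0.58 to 0.41), and the slides differed by -1.49 (SE 0.33, adjusted p = 0.0112). Over both slides H2-Q5 rose by 0.66 (SE 0.16, adjusted p = 0.0137), a call that was lost with slide as a block (highest adjusted p = 0.107).

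H2-Q2 and H2-Q10 rose as well, and both genes have 2 probes. H2-Q2 rose by 0.25 with A_51_P219789 (SE 0.06, adjusted p = 0.0161) and by 0.32 with A_51_P425048 (SE 0.08, adjusted p = 0.0115). On slide 1 the groups were apart for both, with 0.38 and 0.59, and on slide 2 they overlapped, with 0.13 and 0.06. By its mm9 position A_51_P425048 lies nearer to the H2-Q1 probe (chr17:35461859-35461918) than to A_51_P219789 (chr17:35482113-35482172). The H2-Q1 probe itself was not well above background on any array. Which gene A_51_P425048 reports was not tested. H2-Q10, known as a heavy chain secreted by liver, gave 0.36 over both slides with A_55_P1995092 (SE 0.07, adjusted p = 0.00463). That probe read 3.76, 4.05, 3.72 and 3.82 in deficient against 3.38, 3.47, 3.15 and 3.20 in wild-type arrays of slide 1. The slide 2 values were 3.37, 3.74, 3.73 and 3.55 against 3.39, 3.42, 3.46 and 3.39, and deficient array 1 lay below all wild-type arrays. The other H2-Q10 probe (A_55_P2037343) was well above background on 14 arrays, with signals between 22.8 and 433 against 6190 to 13200 for the first. It gave 0.27 with an SE of 0.58 (adjusted p = 0.806), and the mean of both probes did not pass (0.31, adjusted p = 0.522). Which RNA the first probe reports was not tested. A difference of the size of the first probe's was not detectable with the second. H2-Q2 probe A_51_P425048 and H2-Q10 probe A_55_P1995092 lie at chr17:35460007-35460066 and chr17:35610036-35610095 of the plus strand of mm9. They share the 19 bases set in capitals, so their signals need not be separate.
H2-Q2 probe A_51_P425048: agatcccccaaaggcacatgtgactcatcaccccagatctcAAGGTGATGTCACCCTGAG
H2-Q10 probe A_55_P1995092: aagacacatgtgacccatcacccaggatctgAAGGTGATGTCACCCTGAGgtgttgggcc

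H2-Q4 and H2-Q8 did not pass, with 0.13 (SE 0.09, adjusted p = 0.382) and 0.24 (SE 0.09, adjusted p = 0.0847) over both slides. The probe described as H2-Q6, which the list does not hold by name, gave 0.25 (adjusted p = 0.0681), and its value was looked up after the H2-Q8 probe was found to share most of its bases.

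The T region encodes further nonclassical heavy chains, among them Qa-1 and ligands of gamma delta T cells. Of its 5 measured genes H2-T9 alone was higher over both slides, where 7.44% of all measured genes were. Like its near copies H2-T10 and H2-T22, it belongs to the group known to be bound by gamma delta T cell receptors. H2-T9 read 2.94, 3.30, 2.95 and 3.1 in deficient arrays of slide 1 against 1.82, 1.99, 1.74 and 1.78 in wild-type arrays. The slide 2 values were 2.81, 3.33, 3.43 and 2.99 against 2.29, 2.55, 2.68 and 2.09. Every deficient array was above every wild-type array on both slides. The difference was 0.99 over both slides (SE 0.11, adjusted p = 2.9e-05), 1.98-fold, at 1.24 on slide 1 (adjusted p = 0.00013) and 0.74 on slide 2 (adjusted p = 0.00856). It was the largest difference over both slides among the 30 measured members.

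H2-T10 changed on slide 1 alone, and the difference between slides passed. It read 4.57, 4.34, 4.02 and 4.20 in deficient arrays of slide 1 against 3.46, 3.54, 3.34 and 3.22 in wild-type arrays, a difference of 0.90 (SE 0.19, adjusted p = 0.00524). On slide 2 the wild-type arrays read 3.99, 3.98, 4.20 and 3.80, and the deficient arrays 3.50, 3.56 and 3.21 apart from array 1, at 4.31. The slide 2 difference was -0.35 (SE 0.19, adjusted p = 0.33), and without deficient array 1 it was -0.57 and past the threshold (adjusted p = 0.0293). The slides differed by -1.25 (SE 0.27, adjusted p = 0.0113). The probes of H2-T9 and H2-T10, at chr17:36177171-36177230 and chr17:36255918-36255977 on the minus strand of mm9, are shown because these near copies had differences of opposite sign on slide 2. The longest run they share is the 12 bases in capitals.
H2-T9 probe A_55_P2088401: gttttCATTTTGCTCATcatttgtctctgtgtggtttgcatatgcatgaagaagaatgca
H2-T10 probe A_66_P112006: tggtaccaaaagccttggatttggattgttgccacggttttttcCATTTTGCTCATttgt

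H2-T24 was far lower on slide 2 than on slide 1 in both genotypes. Its probe A_55_P2003996 read 1.37, 1.07, 1.63 and 1.40 in deficient and 1.20, 1.08, 1.29 and 1.27 in wild-type arrays of slide 1. On slide 2 it read -0.76, -1.0, -0.69 and -0.90 in deficient and -0.49, -0.48, -0.36 and -0.69 in wild-type arrays. Every deficient array was lower there, by a narrow margin, the nearest values being -0.693 and -0.689. The slide 2 difference was -0.33 (SE 0.12, adjusted p = 0.104) with this probe. With A_55_P2003991, whose groups overlapped on slide 2, it was -0.48 (SE 0.15, adjusted p = 0.0687). For the second probe the slides differed by -0.79 (SE 0.21, adjusted p = 0.0261), and for the first by -0.48 (SE 0.16, adjusted p = 0.0624). The mean of both probes passed as lower on slide 2 (-0.404, adjusted p = 0.0341). It also passed for the difference between slides (-0.635, adjusted p = 0.0157), and not over both slides (-0.086, adjusted p = 0.491). H2-T3, the thymus leukaemia antigen, was well above background on 1 array of each group and gave -0.12 with an SE of 0.51 (adjusted p = 0.905).

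The M region lies farthest from the centromere and holds H2-M3, which presents N-formylated peptides of bacteria and mitochondria. H2-M3 differed by 0.19 over both slides (SE 0.08, adjusted p = 0.112), with a 95% interval from 0.02 to 0.36. H2-M2, whose product is less known, rose by 0.28 with A_51_P191463 (SE 0.07, adjusted p = 0.0178), a call that was lost with slide as a block (highest adjusted p = 0.0926). It read 5.59, 5.86, 5.49 and 5.69 in deficient arrays of slide 1 against 5.18, 5.27, 4.99 and 5.00 in wild-type arrays, and the slide 2 groups overlapped with a difference of 0.00. The slides differed by -0.54 (SE 0.14, adjusted p = 0.0248). A second probe of H2-M2 (A_55_P2135064) was well above background on 14 arrays, with signals from 14.4 to 336 against 21800 to 47500 for A_51_P191463. It gave 0.05 with an SE of 0.40 (adjusted p = 0.949). Which RNA the bright signal of A_51_P191463 comes from was not tested. The mean of both probes did not pass over both slides (0.16, adjusted p = 0.657) or on slide 1 (0.22, adjusted p = 0.633). Nor did its difference between slides (-0.11, adjusted p = 0.888).

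B2m, the light chain every class I heavy chain needs, did not pass on either slide at the scaling used here. It passed as higher on slide 1 with quantile normalization (0.29, adjusted p = 0.0132) and as lower on slide 2 in the authors' value table (-0.24, adjusted p = 0.0292). It read 7.60, 7.74, 7.48 and 7.63 in deficient and 7.44, 7.54, 7.34 and 7.44 in wild-type arrays of slide 1. The slide 2 values were 7.95, 7.94, 8.00 and 7.83 against 7.99, 7.99, 7.93 and 8.27. The groups overlapped on both slides, and the difference was 0.17 on slide 1 (adjusted p = 0.161) and -0.12 on slide 2 (adjusted p = 0.49). Over both slides it was 0.03 (SE 0.06, adjusted p = 0.809), and the 95% interval from -0.10 to 0.16 leaves out the estimates for H2-K1 and H2-D1. The difference between B2m and a heavy chain was not tested.

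Tap1 and Tap2 form the peptide transporter of the endoplasmic reticulum. Tap1 (A_51_P100327, chr17:34330854-34330913, mm9) read 2.82, 3.18, 2.53 and 2.81 in deficient arrays of slide 1 against 2.10, 2.26, 2.05 and 1.94 in wild-type arrays. On slide 2 it read 2.43, 2.72, 2.72 and 2.55 against 2.25, 2.44, 2.52 and 1.99, with an overlap of deficient array 1 and wild-type arrays 2 and 3. Tap1 rose by 0.53 over both slides (SE 0.10, adjusted p = 0.0029), 1.44-fold, at 0.75 on slide 1 (adjusted p = 0.00251) and 0.31 on slide 2 (adjusted p = 0.23). Tap2 gave 0.15 (SE 0.06, adjusted p = 0.117), with every deficient array of slide 1 above the wild-type arrays at a difference of 0.24 (adjusted p = 0.057).

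Of the 5 measured genes of the immunoproteasome and its activator, 2 were higher over both slides, where 7.44% of all measured genes were. Psmb8, Psmb9 and Psmb10 are the catalytic subunits that replace the constitutive ones under interferon. Psmb9 (A_51_P369803) read 6.22, 6.64, 5.86 and 6.10 in deficient arrays of slide 1 and 5.40, 5.60, 5.49 and 5.38 in wild-type arrays, with no overlap. The slide 2 values were 6.64, 6.77, 6.64 and 6.51 against 6.37, 6.44, 6.44 and 6.65. Psmb9 rose by 0.45 over both slides (SE 0.09, adjusted p = 0.00517), 1.37-fold, at 0.74 on slide 1 (adjusted p = 0.00191) and 0.17 on slide 2 (adjusted p = 0.536). The second Psmb9 probe (A_55_P2038983), which lies upstream in the gene and was dim at signals from 106 to 468, gave 0.79 (SE 0.13, adjusted p = 0.000989), at 1.31 on slide 1 and 0.26 on slide 2. For that probe the slides differed by -1.04 (SE 0.26, adjusted p = 0.0183).

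Psmb8 showed the reverse order of slides, at 0.18 on slide 1 (adjusted p = 0.164) and 0.27 on slide 2 (adjusted p = 0.096). It read 6.43, 6.58, 6.45 and 6.53 in deficient arrays of slide 2 against 6.12, 6.23, 6.25 and 6.30 in wild-type arrays, with no overlap. Over both slides Psmb8 rose by 0.23 (SE 0.07, adjusted p = 0.029), 1.17-fold, and the adjusted p over its alternatives ran from 0.00998 to 0.094. Psmb10 differed by 0.06 (SE 0.07, adjusted p = 0.56). Psme1, a subunit of the PA28 activator that opens the proteasome, gave 0.21 (SE 0.08, adjusted p = 0.0965), and the 3 probes of its partner Psme2 gave 0.01, 0.07 and 0.26, none past the threshold. The third Psme2 probe (A_55_P2025612) fell from a wild-type mean of 1.96 on slide 1 to -1.07 on slide 2 while the other 2 rose by 0.98 and 0.96.

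Erap1, the aminopeptidase that trims peptides for class I, rose by 0.21 (SE 0.07, adjusted p = 0.0444), 1.16-fold. On slide 2 it read 0.12, 0.02, 0.10 and 0.03 in deficient arrays against -0.14, -0.24, -0.19 and -0.20 in wild-type arrays, with no overlap. On slide 1 the values were -1.26, -1.12, -1.30 and -1.07 against -1.53, -1.55, -1.19 and -1.14, and they overlapped. This call was the least stable of the 13, lost under 20 of the 26 alternatives tried, with adjusted p from 0.0204 to 0.141.

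None of the 5 genes of the loading complex was called over both slides, and at an unadjusted p under 0.05 none was higher or lower. Tapasin (Tapbp) differed by 0.07 (SE 0.06, adjusted p = 0.473) and the tapasin-like editor Tapbpl by 0.06 (SE 0.06, adjusted p = 0.557). The oxidoreductase Pdia3 gave 0.17 (SE 0.12, adjusted p = 0.35), and the chaperone calreticulin (Calr) 0.17 (SE 0.12, adjusted p = 0.372). Calnexin (Canx), which holds newly made heavy chains, was the only member lower on slide 1. There it read 4.16, 4.25, 4.10 and 4.26 in deficient arrays against 4.35, 4.47, 4.63 and 4.65 in wild-type arrays, a difference of -0.33 (SE 0.08, adjusted p = 0.00991). The slide 2 values were 6.25, 6.19, 6.19 and 6.05 against 5.95, 6.07, 5.94 and 5.98, overlapping at a difference of 0.18 (adjusted p = 0.206). The slides differed by 0.51 (SE 0.11, adjusted p = 0.0116), and over both slides the difference was -0.07 (adjusted p = 0.414).

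Tested as a difference, deficient minus wild type was lower on slide 2 than on slide 1 for H2-Q5, H2-Q7, H2-T10 and H2-M2 and higher for Canx, whose estimate went from below 0 to above it, 4 and 1 of the 30 genes, against 5.10% and 9.51% of all measured genes. Of the member probes 8 of 40 passed in either direction, where 13.9% of all probes did. The median difference between slides of the members was -0.172, against 0.087 over all genes. For Nlrc5 and H2-T9 the estimates were -0.59 (SE 0.24, adjusted p = 0.109) and -0.50 (SE 0.22, adjusted p = 0.134), and for Tap1 -0.44 (SE 0.20, adjusted p = 0.158). On slide 1 deficient arrays lay above all wild-type arrays for 13 of 30 members, where 7.37% of all genes did, and below them for 1, where 15.1% did. On slide 2 they lay above for 9 and below for 1, where 13.9% and 9.89% of all genes did.

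**Figure D4:**
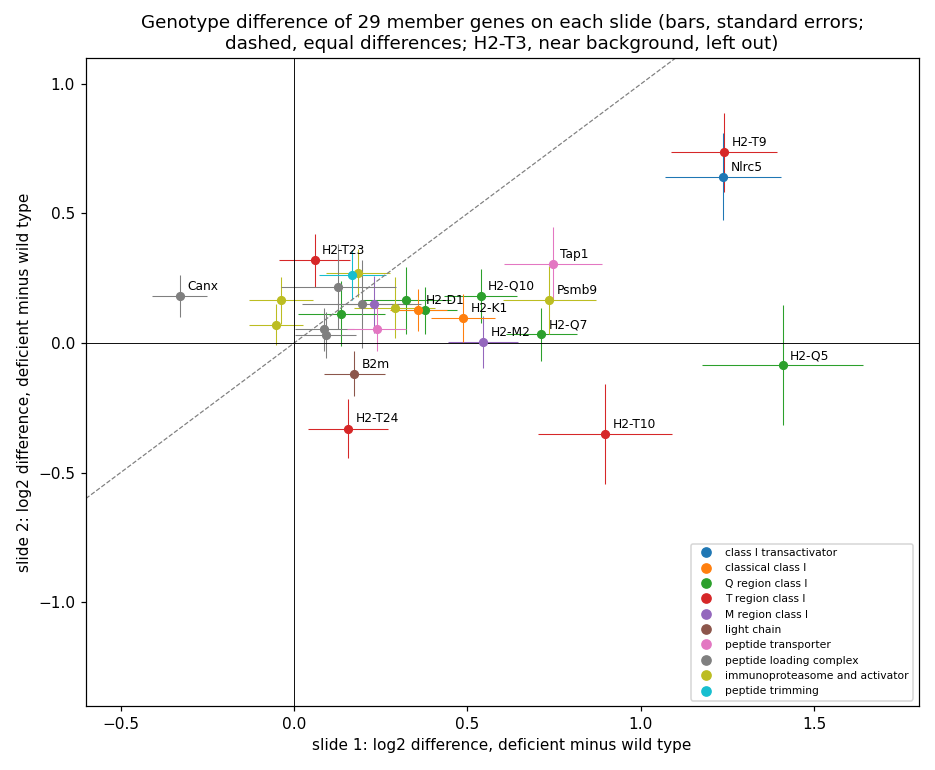
Log2 difference, deficient minus wild type, on slide 1 (horizontal) against slide 2 (vertical) for 29 member genes, with bars for standard errors and a dashed line of equal differences. H2-T9 and Nlrc5 lie high on both axes, H2-Q5 and H2-T10 are high on slide 1 only, and Canx lies left of 0.

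The arrays of a group also differed among themselves in a way the members shared. On slide 1, deficient array 10 was the highest of its group for 21 of the 30 genes and array 11 the lowest for 19. Wild-type array 5 was the highest of its group for 16. The median deviation of the members from their group mean was 0.20 in array 10 and -0.13 in array 11, while 41 interferon response genes deviated there by a median of -0.07 and 0.24. The deviation of array 10 was close in size to the members' median difference on slide 1, 0.235. Without that array 12 members were higher on slide 1, as many as with it. Ddx3y was well above background in deficient arrays 2 and 3 of slide 2, with median deviations of 0.06 and 0.07. It was not in arrays 1 and 4, at -0.03 and -0.09. On slide 1 deficient arrays 11 and 12, with Ddx3y, deviated by -0.13 and -0.02, and arrays 9 and 10 by -0.02 and 0.20. Wild-type arrays 6 and 8, with Ddx3y, deviated by -0.06 and -0.07, and arrays 2 and 5 by -0.01 and 0.13. Any part of sex in the member values was not tested.

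The promoters of 24 of the 34 members were found in the RefSeq table for GRCm38.p6, as windows from 250 bases before to 50 after the start. Class I promoters are known for a kappa B element, an interferon response element and an SXY module whose X2 and Y boxes are bound by CREB and NF-Y factors and through which Nlrc5 acts. Both strands of each window were searched for 4 strings, which do not overlap each other. GGGATTCCC, a kappa B type string, was found in H2-K1, H2-D1, H2-Q6 and H2-Q7, and in 0.353% of all 32851 promoters. GAAANNGAA, of the interferon response type, was found in B2m, Erap1, H2-T22, H2-T23 and Psme1, and in 8.56% of all. Other forms of the interferon response element were not searched, so a window without this string may still hold one. TGACG, the core of the X2 box, was found in 13 members and in 20.8% of all promoters. CTGATTGG, which holds the Y box core, was found in Canx, H2-D1, H2-K1, H2-Q6, H2-Q7, H2-T23, Psmb9 and Tap1, and in 4.1% of all. The core alone was not searched, so a window without this string may still hold it. The windows of B2m, H2-K1, H2-D1 and H2-Q7, for example, all hold attgg after TGACG. In H2-D1 and H2-Q7 the match to CTGATTGG is on the opposite strand and lies after this attgg. Which stretch serves as the Y box was not tested. The table had no entry for Nlrc5, H2-T9, H2-Q5 or H2-T10. The 210 bases before the start are shown for 3 heavy chains that rose, for B2m, which did not pass, and for Tap1, with every match to 1 of the 4 strings within those bases in capitals. The table lists 2 starts for H2-K1, and the first is shown.
H2-K1 promoter, chr17:34000348-34000557, minus strand: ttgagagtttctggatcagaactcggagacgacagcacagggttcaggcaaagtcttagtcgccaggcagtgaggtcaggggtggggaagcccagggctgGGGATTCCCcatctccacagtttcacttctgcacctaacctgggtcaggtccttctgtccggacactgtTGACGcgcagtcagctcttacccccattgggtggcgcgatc
H2-D1 promoter, chr17:35262884-35263093, plus strand: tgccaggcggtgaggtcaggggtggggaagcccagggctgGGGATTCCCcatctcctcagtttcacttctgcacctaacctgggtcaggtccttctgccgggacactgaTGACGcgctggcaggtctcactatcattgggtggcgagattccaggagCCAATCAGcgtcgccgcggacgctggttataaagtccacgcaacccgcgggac
H2-Q7 promoter, chr17:35438945-35439154, plus strand: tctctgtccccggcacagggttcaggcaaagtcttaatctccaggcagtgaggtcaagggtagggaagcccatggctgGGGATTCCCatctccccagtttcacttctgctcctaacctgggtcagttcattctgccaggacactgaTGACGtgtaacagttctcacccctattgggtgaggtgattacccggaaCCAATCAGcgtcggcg
B2m promoter, chr2:122147477-122147686, plus strand: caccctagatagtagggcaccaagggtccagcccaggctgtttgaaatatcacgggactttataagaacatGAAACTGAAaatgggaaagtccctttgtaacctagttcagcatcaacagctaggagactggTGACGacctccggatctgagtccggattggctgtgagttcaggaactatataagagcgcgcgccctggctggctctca
Tap1 promoter, chr17:34187346-34187555, plus strand: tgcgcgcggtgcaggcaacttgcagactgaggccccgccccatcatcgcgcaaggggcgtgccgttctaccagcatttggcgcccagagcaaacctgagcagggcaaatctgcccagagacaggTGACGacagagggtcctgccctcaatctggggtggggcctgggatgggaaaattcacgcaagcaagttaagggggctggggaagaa
In the 3 heavy chain windows the kappa B type string precedes TGACG, with near-identical bases between them. In B2m GAAANNGAA precedes TGACG, and GGGATTCCC was not found. Other forms of the kappa B element were not searched, and the B2m window holds gggaaagtccc. The lack of a GGGATTCCC match is thus no sign that the B2m window lacks a kappa B element. The 3 heavy chain windows hold agtttcacttct between GGGATTCCC and TGACG. Its opposite strand holds GAA before GAAA, the reverse of the order searched. The lack of a GAAANNGAA match there is thus no sign that these windows lack an interferon response element. The window of Tap1 overlaps that of Psmb9, read from the opposite strand, by 275 bases, and their starts lie 226 bases apart, so the promoter sequence shown for Tap1 lies between the 2 genes. Both genes rose over both slides, by 0.53 and 0.45. No measurement of factor binding was analysed here, and the matches are descriptions of the sequence.

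Other genes of the pathway were given by lists. The shares to set beside their counts over both slides are 7.44% higher and 9.65% lower among all measured genes. For counts at limma's unadjusted p under 0.05 the shares are 13.2% and 17.3%. Of 18 factors known at class I promoters 3 were higher over both slides and 2 were lower, with a median of 0.006. Irf9, a transcription factor of the interferon response, rose by 0.48 (SE 0.08, adjusted p = 0.00125). Rfxank, a subunit of the RFX complex at the X box, fell by 0.27 (adjusted p = 0.0128), and its partner Rfx5 rose by 0.20 (adjusted p = 0.0312). Of 41 interferon response genes 31 were higher and none was lower over both slides, with a median of 0.784. The medians were 1.18 on slide 1 and 0.38 on slide 2, and Oasl2, Ifi44, Oas2 and Gbp6 had the largest fitted differences among the called genes. Oasl2 was not well above background on any wild-type array of slide 1, and no size is given for it. The other 3 rose by 2.49 to 2.57. On both slides the median difference of this list was larger than that of the members, and any link between them was not tested.

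A list of 6 other proteasome genes held the constitutive catalytic subunits Psmb5, Psmb6 and Psmb7, the activators Psme3 (PA28 gamma) and Psme4, and the assembly chaperone Pomp. By its brightest probe none of them was called on either slide or over both, and 1 of their 9 probes was lower on slide 1. The list had a median of -0.024 over both slides. Over both slides 1 of the 6 was higher and 1 was lower at an unadjusted p under 0.05. Of 19 other genes of peptide supply and quality control 1 was higher, the aminopeptidase Lap3 by 0.22 (adjusted p = 0.0494), and 1 was lower, Nrd1 by -0.62 (adjusted p = 0.000213). Of 4 measured further class I heavy chain genes none was called over both slides. At an unadjusted p under 0.05 1 of the 4 was higher and none was lower by limma. Of 82 measured MHC region genes that are not class I genes 6 were higher and 3 were lower, with a median of 0.020. Among the called genes Cfb, Cdsn, C4b and Prrt1 had the largest fitted differences. The complement gene Cfb was well above background on none of the slide 2 arrays, and on slide 1 it rose by 2.54 (adjusted p = 0.00215). Cdsn was not well above background on any wild-type array of slide 1, and no size is given for it. The complement gene C4b rose by 0.81 over both slides (adjusted p = 0.0404), and Prrt1 fell by 0.52 (adjusted p = 0.0128).

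**Figure D5:**
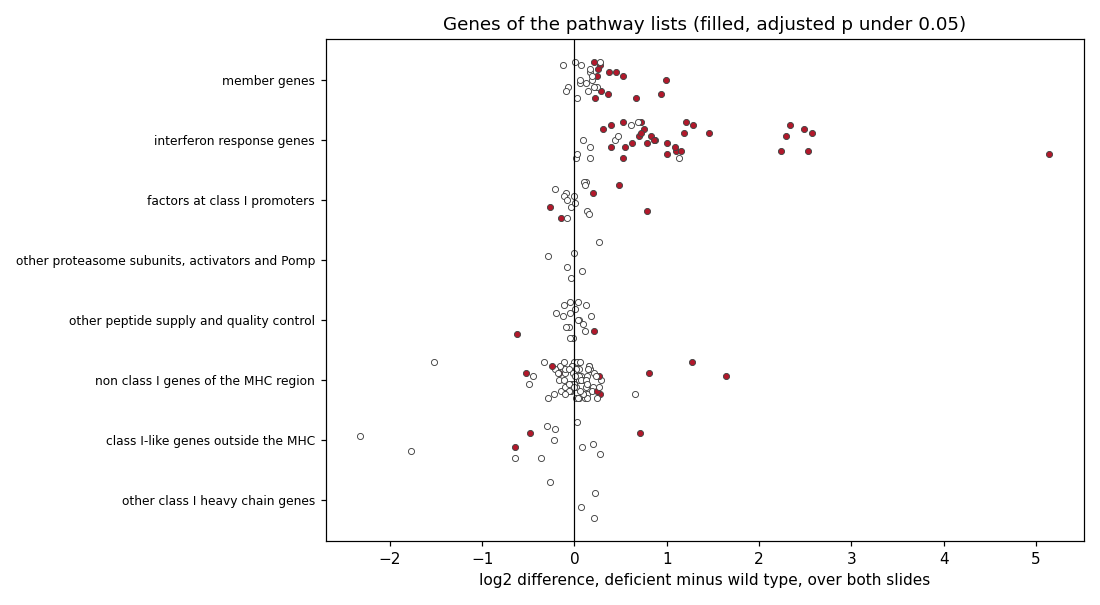
Log2 difference, deficient minus wild type, over both slides for the member genes and 7 lists of related genes, 1 point a gene, filled where limma's adjusted p was under 0.05, where the points of Oasl2, Cfb and Cdsn rest in part on signals not above background. Of the 41 interferon response genes 31 are filled, all above 0, against 13 of the 30 member genes.

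Of 14 measured class I-like genes outside the MHC 1 was higher and 2 were lower over both slides, with a median of -0.263. Cd1d1 and Cd1d2, which present lipids to NKT cells, fell by 0.48 (SE 0.12, adjusted p = 0.0118) and 0.65 (SE 0.12, adjusted p = 0.002). Raet1e, a ligand of the receptor NKG2D, rose by 0.71 (SE 0.13, adjusted p = 0.00216), at 1.58 on slide 1 and -0.16 on slide 2.

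Levels of other cells' markers differed between slides, and some differed between genotypes as well. The summed signal of the 10 B cell markers ran from 1030 to 1150 in deficient and from 1070 to 1290 in wild-type arrays of slide 1, and from 711 to 773 against 594 to 694 on slide 2, where the genotypes did not overlap. The summed signal of 12 macrophage and monocyte markers ran from 100 to 151 in deficient and from 78.9 to 167 in wild-type arrays of slide 1, in units of the array's 75th percentile, and from 19.9 to 26.6 and from 17.8 to 27.4 on slide 2. That of 11 T cell markers ran from 40.9 to 46.7 and from 40.3 to 46.9 on slide 1, and from 71.6 to 116 and from 68.6 to 104 on slide 2. The genotypes overlapped in both lists on both slides, and so did 7 dendritic cell markers, of which Xcr1 was not well above background on any array. Plasma cell markers, all 5 well above background, ran from 240 to 479 in deficient and from 147 to 240 in wild-type arrays of slide 1, and from 153 to 202 against 207 to 280 on slide 2. The summed level of 5 erythroid markers ran from 1.95 to 9.9 in deficient arrays of slide 2 against 0.182 to 0.229 in wild-type arrays, and overlapped on slide 1, from 61.3 to 216 against 54.8 to 343. The 6 neutrophil markers ran from 8.6 to 145 in deficient and from 3.17 to 34.6 in wild-type arrays of slide 1, and from 2.73 to 3.48 against 1.94 to 2.37 on slide 2. The part of these cells in the member values was not tested, and fewer cells of a type cannot be told apart from less RNA per cell in these bulk samples. H2-Ea-ps is the class II alpha gene of the E molecule, known to be silent in b haplotypes and transcribed in d haplotypes. Its probe was not well above background on any of the 16 arrays. Whether the probe detects a transcribed allele was not tested, and the H2 haplotype of the mice was not determined here.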

How the data were processed

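Total RNA (0.2 microgram, RIN number 9 for every sample, per the labels) was labelled with Cy3 and hybridised to Agilent arrays of 62976 spots. The spot intensity is the authors' scanner output, per the file headers background-subtracted within the array by Feature Extraction 10.7.3.1, with mm9 coordinates. The series also holds the authors' deposited table of log2 values, whose column medians lie at 5.58 to 5.6 on slide 1 and 6.49 to 6.5 on slide 2. Its scale was thus set within slides, how its background was treated is not given in the sources used here, and it entered as an alternative on each slide.

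Here the log2 processed signal minus the log2 of the array's 75th percentile over non-control spots was used. Spots flagged as outliers were left out (none of a member), and spots of a probe were averaged. Probes that 4 or more of the 16 arrays measured well above background entered a limma 3.58.1 (R 4.3.3) model with 4 group means. Its contrasts gave the difference over both slides, on each slide and between slides. The fit was tested on simulated data. Promoters came from RefSeq. Genotype, strain entry and the position on a slide were taken from the labels. Every member was reported, and from each other list no more than 4 called genes, those of largest difference, were named. The values of 1 such gene are not reported here. The members and lists were chosen with earlier results of these data known.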

Additional observations from a re-analysis of the deposited data

Results flagged for a closer look

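In 8 of 40 measured member probes the genotype difference on slide 2 differed from that on slide 1 by the model's interaction term, given here as slide 2 minus slide 1 with limma's adjusted p. It was -1.49 for H2-Q5 (adjusted p = 0.0112), -1.25 for H2-T10 (adjusted p = 0.0113), -1.04 for Psmb9 probe A_55_P2038983 (adjusted p = 0.0183) and -0.79 for H2-T24 probe A_55_P2003991 (adjusted p = 0.0261). It was -0.68 for H2-Q7 (adjusted p = 0.0103), -0.54 for H2-M2 (adjusted p = 0.0248), -0.53 for H2-Q2 probe A_51_P425048 (adjusted p = 0.036) and 0.51 for Canx (adjusted p = 0.0116). That of H2-Q2 missed the threshold under 15 of 24 alternatives (highest adjusted p = 0.142), among them leaving out any 1 array of slide 2. Of these 8 probes only that of Canx had the higher difference on slide 2.

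A single array stood far from the other 3 of its group in 11 of 160 groups of 4 arrays, where chance alone sets about 5% of groups apart. Wild-type array 5 of slide 2 accounted for 4 of them. It read 6.11 for Psme1 where the others lay between 5.73 and 5.77, 8.59 for H2-K1 (A_51_P198434) where they lay between 8.26 and 8.31, and 7.77 for H2-Q7 where they lay between 7.59 and 7.6. For Psmb9 probe A_55_P2038983 it was the lowest, at -1.85. Without this array the slide 2 difference of each of these probes stayed on its side of the threshold, while the difference of Psme1 over both slides passed (0.26, adjusted p = 0.0365).

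Deficient array 1 of slide 2 was the lowest of its group for H2-Q4 (6.06), Tapbp (4.83) and Psme2 probe A_55_P2025612 (-1.1). Deficient array 4 of slide 2 was the lowest for H2-Q2 probe A_51_P425048 (5.28) and the highest for H2-T3 (-4.59), which was well above background on that array alone in its group. Wild-type array 3 of slide 2 was the highest for Tapbpl (2.82), and deficient array 10 of slide 1 the highest for Psme2 probe A_55_P1996862 (6.95).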

How the results depend on the processing

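The count of 13 member genes higher over both slides stayed within 1.5 times under every alternative tried, and none was lower. It ran from 9 with slide as a random block to 17 with array weights. Leaving out 1 array gave 11 to 14, and 14 to 17 in place of 16 member probes. Over all 32881 measured probes the higher calls went from 2493 to 1432 with the random block and 3056 with array weights. On slide 1 the 12 higher genes ran from 10, among others with that slide fitted alone, to 17 with quantile normalization. The higher calls there over all probes went from 3020 to 1269 with that slide alone and 3311 with quantile normalization. On slide 2 the 2 higher genes became 4 with median scaling and with each slide fitted alone, and 12 with array weights. They became 1 with quantile normalization, no filter on dim probes, the mean of a gene's probes and the replicate block. Leaving out an array gave 1 to 3. The higher calls on slide 2 over all probes went from 1199 to 1629 with median scaling, 1847 with each slide alone and 4632 with array weights. With quantile normalization they were 924 and with the replicate block 452. Lower genes on slide 2 became 1 with the mean of probes (H2-T24) and with the authors' value table (B2m). They became 2 with array weights, where the lower calls over all probes went from 1255 to 3610. They ranged from 0 to 1 without an array. The 1 lower gene on slide 1 became 0 with that slide alone and with the authors' table. The lower calls there over all probes went from 4648 to 1552 and 1555. For the difference between slides the 4 lower genes became 12 with quantile normalization, 7 with array weights and 1 with the replicate block. Over all probes the lower calls went from 1690 to 1497, 2633 and 718 in these settings. The 1 higher gene became 0 with quantile normalization, where the higher calls over all probes went from 2866 to 1390. Without an array the lower genes ran from 3 to 6. The cause of these changes was not tested.

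No called value of a member probe changed sign. The replicate block used the numbers shared on slide 2. Same-numbered arrays there had deviations correlated at 0.0136, 0.0953 and 0.0631, so the numbers were not taken to pair samples. The calls over both slides of Erap1, Psmb8, H2-Q5, H2-M2 and H2-Q2 probe A_51_P425048 missed the threshold under some alternatives. With the mean of a gene's probes those of H2-Q10 and H2-M2 did. The dim probes of H2-Q10, H2-M2 and H2-T3 can show only large differences.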

Other observations

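H60a and H60b, minor histocompatibility antigens and ligands of NKG2D in the list of class I-like genes, were not well above background on deficient array 4 of slide 2 alone. H60a read -6.94 there, against 2.37 to 2.61 in the other deficient arrays of the slide and 3.51 to 3.74 in the wild-type arrays. H60b read -4.91 there, against -0.03 to 0.33 and 1.16 to 1.41. On slide 1 H60a read 2.54 to 2.79 in deficient and 3.68 to 4.21 in wild-type arrays, and H60b 0.58 to 0.68 against 1.59 to 2.16. Both genes were thus lower in every deficient array of both slides, yet neither passed limma's threshold over both slides (adjusted p = 0.174 and 0.0573). These genes were picked after their values were seen.

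Among the 40 measured member probes, 11 differed by more than 1 log2 unit between the wild-type groups of the slides, 27.5% against 41.2% of all 32881 measured probes. The wild-type mean on slide 2 minus that on slide 1 ran from -3.03 for Psme2 probe A_55_P2025612 to 1.99 for H2-Q5. It was -1.72 and -1.7 for the H2-T24 probes, 1.46 for Canx and 1.29 for Pdia3.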
